A study of Mus musculus with 5 samples.

Results

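The genes described here are 10 genes of the microRNA (miRNA) pathway, 5 that carry miRNA genes within them (host genes: Pde2a, Egfl7, Col27a1, Dnm3os and Ank1) and 5 that process or load miRNAs (Drosha, Dgcr8, Xpo5, Dicer1 and Ago2). They were taken by gene name, with every probe of each gene, which gave 27 of the 56605 probes and 10 of the 37074 gene names on the array. A total of 24 of the 27 probes passed the filter on dim probes, 15 were well above background on all 5 arrays and 2 on none. Each of the 10 genes kept at least 1 probe.

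The study compared the vessel lining of hepatomas with that of normal liver on Agilent 1-colour arrays, with 5 arrays that each held a different condition. Liver sinusoidal endothelial cells (LSECs) came from C57BL/6 liver. Tumor endothelial cells (TECs) were the CD31+ cells taken with magnetic beads from tumors grown in the left liver lobe of mice from HAK-1B or KYN-2 cells, which are human hepatoma lines, or from Hepa1-6 cells, a mouse hepatoma line. The labels give C57BL/6 for all 3 TECs, whereas the methods name female C57BL/6 and nude BALB/c mice of the same young age without tying a tumor to a strain. The 5th array held cultured Hepa1-6 cells, labelled C57L. The methods name Huh-7 where the labels name HAK-1B, and neither says whether RNA of several animals was pooled. The animals were otherwise untreated.

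The 3 TEC arrays shared a slide, while LSEC and the cancer cells each had another, and slide therefore cannot be told apart from group. Between 44.6% and 78.1% of probes were well above background, with the highest share on the Hepa1-6 TEC array. Spots repeated within an array had a median coefficient of variation of 2.62% to 3.08%, but each probe of the 10 genes had 1 spot. The genes that define endothelium, Pecam1 and Cdh5 among them, were well above background on all 4 endothelial arrays (12 of 12 genes of a pan-endothelial list), against 3 of 12 in the cultured Hepa1-6 cells. No condition had a replicate, so no value here has a replicate check, and its precision is limited by the number of arrays. All values are normalized log2 signals or differences between them, and levels were compared between arrays for the same probe only.

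A miRNA starts as a hairpin in a longer primary transcript. In the nucleus Drosha and its partner Dgcr8 cut the hairpin out, Xpo5 carries it to the cytoplasm, Dicer1 trims it to a short duplex, and an Argonaute protein such as Ago2 keeps 1 strand and uses it to find target mRNAs through the seed near its 5′ end. Many miRNA genes lie inside another gene, and those on the same strand can be made from that gene's own transcript, as the endothelial miR-126 is from Egfl7.

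In the gene table of GRCm38.p6 from RefSeq, 4 of the 5 host genes held a miRNA gene on their own strand. Mir139 lay within Pde2a at chr7:101475376-101475443 on the plus strand. Mir126a lay within Egfl7 at chr2:26591357-26591429 on the plus strand, and Mir126b lay over it on the minus strand. Mir455 lay within Col27a1 at chr4:63256867-63256924 on the plus strand. Dnm3os, a non-coding RNA gene, held Mir199a-2 at chr1:162217814-162217923 and Mir214 at chr1:162223368-162223477, both on the plus strand, and the whole unit lay inside Dnm3, which runs on the minus strand. The host of miR-486 is Ank1. Of the processing genes, Dgcr8 held Mir1306 and Xpo5 held Mir693.

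The mature sequences of these miRNAs are shown because their host transcripts are the genes measured below. They were taken from RefSeq, and the capitals mark the seed, bases 2 to 8 counted from the 5′ end. The first pair comes from Pde2a, the next from Egfl7, the following pair from Col27a1 and the last 4 from Dnm3os.
mmu-miR-139-5p: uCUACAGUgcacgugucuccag
mmu-miR-139-3p: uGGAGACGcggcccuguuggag
mmu-miR-126a-3p: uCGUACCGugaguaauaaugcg
mmu-miR-455-5p: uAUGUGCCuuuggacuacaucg
mmu-miR-455-3p: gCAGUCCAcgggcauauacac
mmu-miR-199a-5p: cCCAGUGUucagacuaccuguuc
mmu-miR-199a-3p: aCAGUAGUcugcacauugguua
mmu-miR-214-5p: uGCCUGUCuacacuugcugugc
mmu-miR-214-3p: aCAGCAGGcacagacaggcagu
No seed was shared among them. Elsewhere in the table the seed of miR-199a-3p was also that of miR-199b-3p, the seed of miR-214-3p that of miR-761, and the seed of miR-455-5p that of miR-5129-3p. Mature miR-199a-5p and miR-199a-3p can also come from Mir199a-1, which lies opposite Dnm2. The arrays measured the host transcripts and not these miRNAs, and no signal of a mature miRNA was analysed here.

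The transcripts of 4 host genes, Pde2a, Egfl7, Col27a1 and Dnm3os, were lower than in LSEC in all 3 TECs, by 3.69-fold to 14.4-fold where both arrays were well above background. The transcript of Ank1 was not. The top of the range is Dnm3os in HAK-1B TEC, where its signal was near background. With normexp background correction, which draws dim signals together, its log2 difference there was -2.23 instead of -3.85. That of Col27a1 in HAK-1B TEC was then -1.29 instead of -2.06. The processing genes showed no shared direction. By their brightest probes, Ago2 and Xpo5 were higher and Dicer1 lower in all 3 TECs, by smaller amounts than the 4 lower host genes. Counted at 1.5-fold higher or 0.66-fold or less in all 3 TECs by the brightest probe, 4 of 5 host genes were lower and 0 higher, and 0 of 5 processing genes were either. Over the 26993 genes kept, 13.6% were lower and 10.3% higher by the same count. The miRNAs of Pde2a, Dnm3os, Col27a1 and Ank1 were among the most downregulated in TECs on the study's own miRNA array. These host genes are therefore not a set independent of the comparison with LSEC. The median of the mean log2 differences was -2.43 over the host genes and 0.26 over the processing genes, beside 0.10 over all genes kept. Without Hepa1-6 TEC the median of the processing genes was -0.22. In these bulk samples fewer cells of a type and less RNA per cell cannot be told apart.

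Markers of other cells moved between the same arrays. Of 8 neutrophil genes, 4 were 1.5-fold higher in all 3 TECs and 0 lower, and S100a8 gave 7.82 in LSEC and 14.86, 12.19 and 9.44 for HAK-1B, Hepa1-6 and KYN-2 TEC. The summed signal of the neutrophil list was 2.16-fold that of LSEC in HAK-1B TEC and 0.697-fold and 0.836-fold in Hepa1-6 TEC and KYN-2 TEC. Csf3r made up 97.8% of that sum in LSEC, and without it the other 7 genes summed to 68.5-fold, 13.1-fold and 1.78-fold of LSEC. Such sums without the brightest gene, here and for other lists, were chosen after the data were seen. Of 10 macrophage genes, 4 were lower in all 3 TECs, the Kupffer cell genes Clec4f, Cd5l, Marco and Vsig4, and 1, Spp1, was higher. The summed signal of the macrophage list was 1.08-fold, 1.90-fold and 1.52-fold lower, though in HAK-1B TEC it was 1.17-fold higher without Cd5l. The part of these cells in the values of the host genes and of Ago2 was not tested.

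**Figure D1:**
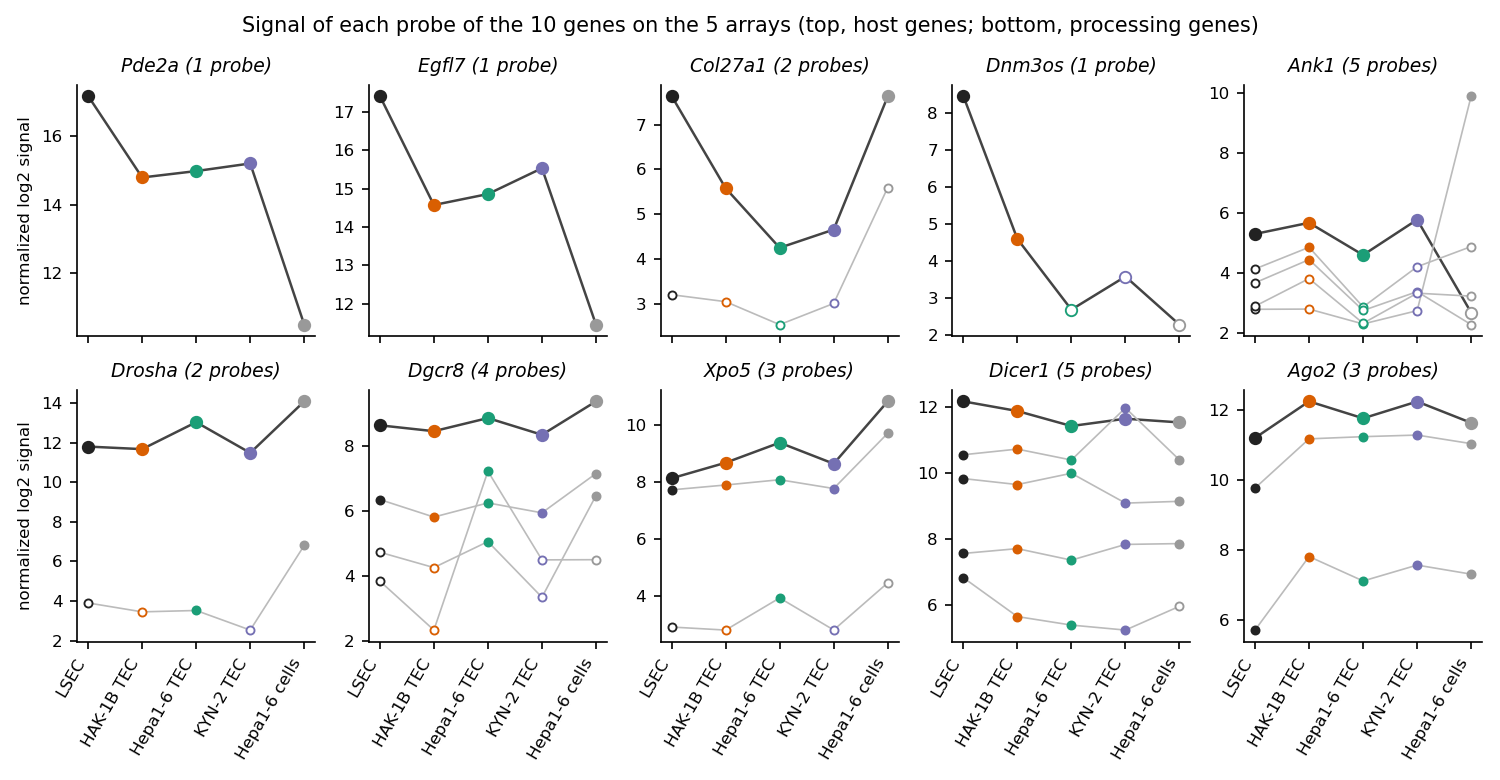
Normalized log2 signal (vertical axis, with its own scale for each gene) of each probe of the 10 genes on the 5 arrays (horizontal axis, 1 array per condition). Lines join the values of a probe, the dark line is the brightest probe, and open circles are not well above background. Pde2a lay at 17.18 on the LSEC array and at 14.79 to 15.20 in the TECs, whereas Drosha and Xpo5 were highest in the cultured Hepa1-6 cells.

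Pde2a encodes a phosphodiesterase that breaks down cyclic AMP and cyclic GMP, and it carries the hairpin of miR-139. Its probe (mm9 chr7:108661268-108661327, plus strand) gave 17.18 in LSEC, 14.79 in HAK-1B TEC, 14.98 in Hepa1-6 TEC, 15.20 in KYN-2 TEC and 10.49 in cultured Hepa1-6 cells. LSEC was the highest array, the 3 TECs lay close together well below it, and the cancer cells were far below all 4 endothelial arrays. The signal was thus 5.22-fold, 4.58-fold and 3.93-fold lower for HAK-1B, Hepa1-6 and KYN-2 TEC and 103-fold lower in the cancer cells. The mean log2 difference of the TECs to LSEC was -2.18 ± 0.21 (SD, n = 3 TECs).

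Egfl7 encodes a protein that endothelial cells secrete, and it carries miR-126a. Its probe (mm9 chr2:26448142-26448201, plus strand) gave 17.42 in LSEC, 14.58 in HAK-1B TEC, 14.86 in Hepa1-6 TEC, 15.53 in KYN-2 TEC and 11.46 in the cancer cells. As for Pde2a, LSEC was highest and the cancer cells lowest, and the TECs did not overlap with either. Egfl7 was 7.17-fold, 5.88-fold and 3.69-fold lower than in LSEC for HAK-1B, Hepa1-6 and KYN-2 TEC, with a mean log2 difference of -2.43 ± 0.49 (SD, n = 3 TECs).

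Dnm3os is the transcript of miR-199a-2 and miR-214. Its only probe (mm9 chr1:164152691-164152750, plus strand) gave 8.45 in LSEC and 4.60 in HAK-1B TEC, both well above background. It gave 2.70 in Hepa1-6 TEC, 3.59 in KYN-2 TEC and 2.29 in the cancer cells, which were not well above background. LSEC was the highest array, HAK-1B TEC came next, and the other 3 arrays gave only an upper limit. Dnm3os was 14.4-fold lower in HAK-1B TEC than in LSEC, and at least 48.7-fold, 14.0-fold and 5.61-fold lower in Hepa1-6 TEC, KYN-2 TEC and the cancer cells. These bounds set LSEC against the dimmest signal that counts as well above background on the other array, so their order follows the arrays' own limits. With all 3 values taken as measured, the mean log2 difference of the TECs was -4.82 ± 0.95 (SD, n = 3 TECs). With normexp background correction, which draws dim signals together, it was -2.46.

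Of the 3 probes of Dnm3, the gene on the opposite strand around Dnm3os, only the brightest was well above background, and in HAK-1B TEC alone. It gave 4.90 there and 2.35 to 2.81 on the other 4 arrays. In LSEC, where Dnm3os was highest, none of the Dnm3 probes was well above background.

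Col27a1 encodes a fibrillar collagen and carries miR-455. Its brighter probe (mm9 chr4:62995485-62995544, plus strand) gave 7.64 in LSEC, 5.58 in HAK-1B TEC, 4.25 in Hepa1-6 TEC, 4.66 in KYN-2 TEC and 7.63 in the cancer cells. LSEC and the cancer cells were at the same height, and the 3 TECs lay below both. The signal was 4.16-fold, 10.5-fold and 7.90-fold lower than in LSEC for HAK-1B, Hepa1-6 and KYN-2 TEC, with a mean log2 difference of -2.81 ± 0.68 (SD, n = 3 TECs), or -1.52 with normexp background correction. The other probe of Col27a1 was not well above background on any array and gave no second reading.

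Dnm3os is also known from fibroblasts and stellate cells. Of a list of 12 stellate cell and fibroblast genes, 4 were 1.5-fold higher in all 3 TECs and 0 were lower, and 5, 9 and 11 of the 12 were above LSEC for HAK-1B, Hepa1-6 and KYN-2 TEC. The summed signal of the list was 1.42-fold, 9.27-fold and 3.76-fold that of LSEC, or 3.80-fold, 7.95-fold and 11.0-fold without Dcn, which made up 73.8% of the sum in LSEC and was highest in the cancer cells. Col1a1, a collagen of fibroblasts, was not well above background in LSEC at 4.72 and reached 9.46 to 11.53 in the TECs, and Lrat, a stellate cell gene, was well above background in Hepa1-6 TEC only. Pdgfra and Dpt had mean log2 differences of -0.62 and -1.49, and Lum, Rgs5 and Postn of -0.17 to 0.06. The part of these cells in the signals of Dnm3os and Col27a1 was not tested.

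Ank1 encodes ankyrin of the red cell membrane and carries miR-486. Its brightest probe by the mean over the arrays (mm9 chr8:24259629-24259688, plus strand) gave 5.30 in LSEC, 5.67 in HAK-1B TEC, 4.60 in Hepa1-6 TEC, 5.78 in KYN-2 TEC and 2.67 in the cancer cells, where it was not well above background. LSEC lay within the range of the TECs, which stood on both sides of it. The mean log2 difference was 0.05 ± 0.65 (SD, n = 3 TECs). Another of its 5 probes was well above background in the cancer cells alone, where it gave 9.91 against 2.29 to 2.79 on the endothelial arrays, at least 37.6-fold higher than in LSEC. Further probes lay between 2.27 and 4.88, with at most 1 array well above background each.

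Red cell precursors are the best known source of Ank1. The summed signal of a list of 12 erythroid genes was 35.0-fold, 5.75-fold and 1.81-fold lower than in LSEC for HAK-1B, Hepa1-6 and KYN-2 TEC, but 96.2% of the sum in LSEC was Hba-a1. Without it the sum was 7.12-fold, 4.63-fold and 1.51-fold lower, and of the 9 genes that passed the filter 3 were lower in all 3 TECs and 6 neither, with medians of -0.63, -1.09 and -0.31. Hba-a1, a globin gene, gave 17.80 in LSEC and 12.43, 15.26 and 16.93 in TECs of HAK-1B, Hepa1-6 and KYN-2 tumors. Klf1 and Epb42, which also belong to red cell precursors, were highest in Hepa1-6 TEC, at 6.19 and 5.87. Epb42 and Sptb were well above background in Hepa1-6 TEC only, so they passed the filter through that array alone. The part of red cell RNA in the Ank1 signal was not tested.

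**Figure D2:**
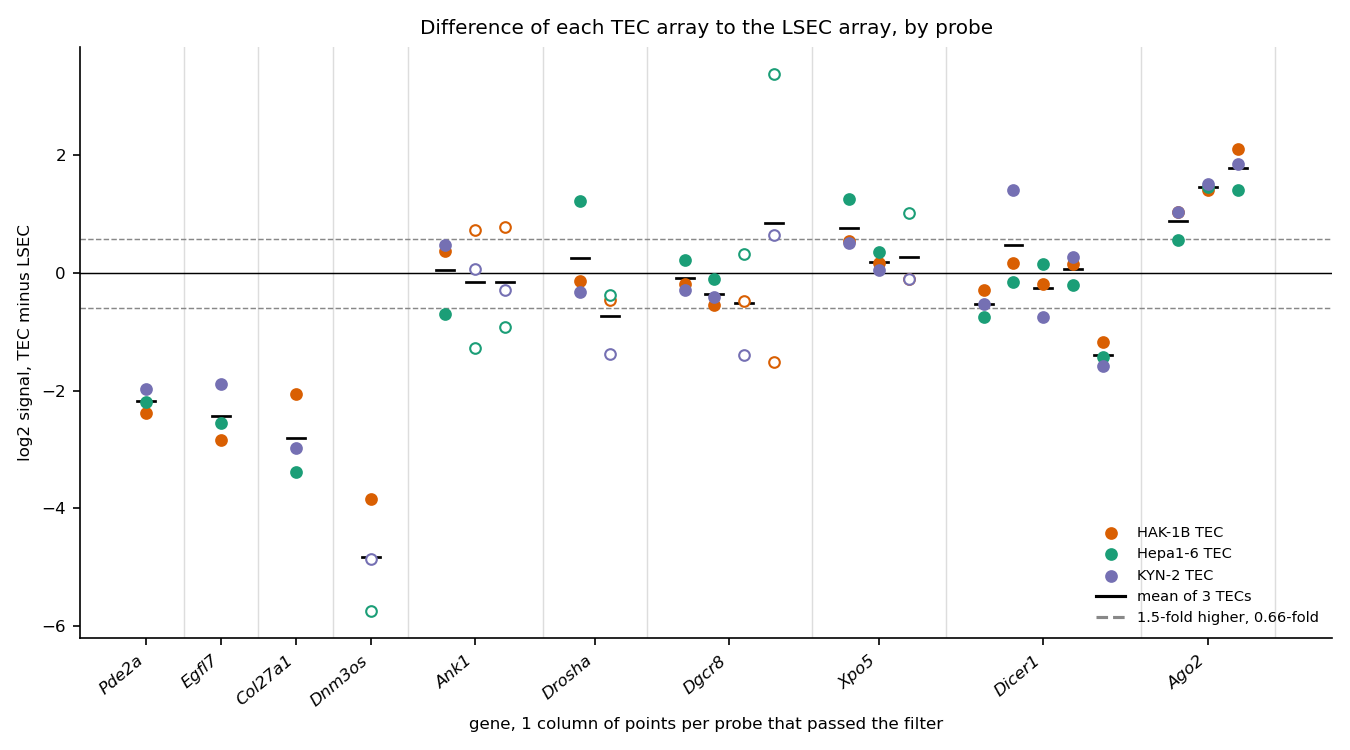
Log2 difference of each TEC array to the LSEC array (vertical axis) for each probe that passed the filter (1 column of points per probe, grouped by gene on the horizontal axis), with the mean of the 3 TECs as a black bar. Open circles have a signal not well above background on either or both arrays, and dashed lines mark 1.5-fold higher and 0.66-fold. Pde2a, Egfl7, Col27a1 and Dnm3os lie wholly below the lower line, all 3 probes of Ago2 lie above 0, and the probes of Dicer1 spread to both sides of 0.

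By the rule of size of the study's methods, which asks for a ratio of 1.5 or 0.66 together with a Z-score of 2 or -2 among all probes of the comparison, 2 host genes were called lower in each TEC. They were Egfl7 and Dnm3os in HAK-1B TEC, where 3.41% of 32055 probes were called lower. In Hepa1-6 TEC (1.94% of 41380 probes) they were Col27a1 and Dnm3os. The same pair was called in KYN-2 TEC (2.52% of 31168 probes). Pde2a was called in none of the 3 in this main setting, with Z-scores of -1.71, -1.35 and -1.43. The Z-score asked for a signal 6.91-fold, 9.84-fold and 6.77-fold lower than LSEC for HAK-1B, Hepa1-6 and KYN-2 TEC. Only 1 host gene each was called lower for HAK-1B and Hepa1-6 TEC under scaling to the 75th percentile or quantile normalization by pair, and only 1 for Hepa1-6 and KYN-2 TEC with the mean over all probes or the strictest filter. With normexp background correction 3 genes were called lower in each TEC, and with no filter on dim probes 3 in HAK-1B TEC. The 3 lowest host genes with normexp were Dnm3os, Egfl7 and Pde2a in each TEC. Pde2a was then at -2.41, -2.17 and -1.93 for HAK-1B, Hepa1-6 and KYN-2 TEC. No host or processing gene was called higher, where 2.77%, 3.77% and 3.29% of probes were. Because LSEC was a single array shared by the 3 comparisons, they are not independent of each other.

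Taken as 1 group against the lone LSEC array in limma, with LSEC assumed to vary like the TECs and 2 residual degrees of freedom, 0 of 42113 probes passed a Benjamini-Hochberg adjusted p of 0.05. The adjusted p in limma was 0.443 for Dnm3os, 0.466 for Pde2a and 0.486 for both Egfl7 and Col27a1. Without adjustment, 7 of the 24 probes of the 10 genes had a limma p under 0.05, beside 8.50% of all probes. These were the probes of the 4 host genes, a pair of Ago2 probes and 1 Dicer1 probe.

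The host genes were next set beside genes that all endothelial cells use, since these too were lower in TECs. Of the 12 pan-endothelial genes, 10 were lower at 0.66-fold or less in all 3 TECs, with a median log2 difference of -2.86, -2.66 and -1.63 in the HAK-1B, Hepa1-6 and KYN-2 TECs. Kdr, the main receptor of vascular endothelial growth factor, had a mean log2 difference of -3.47, and Cdh5, the endothelial cadherin, of -1.79. The genes that missed the count were Pecam1 and Emcn, with means of -1.07 and -0.72. In KYN-2 TEC they stood at -0.09 and 0.15, where Pde2a was at -1.97 and Egfl7 at -1.88. Of 10 genes typical of LSEC, 9 were lower, with a median of -3.14.

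Egfl7 lay near the median of the pan-endothelial genes. Its log2 difference relative to that median was 0.02, 0.10 and -0.26 in TECs of HAK-1B, Hepa1-6 and KYN-2 tumors, a mean of -0.05 ± 0.19 (SD, n = 3 TECs). Pde2a also lay within their range, at 0.48, 0.46 and -0.35 relative to the median, a mean of 0.20 ± 0.47 (SD, n = 3 TECs), and 7 of the 12 had a lower mean than Pde2a. Relative values of these genes were thus near 0 and not of the same sign in all 3 TECs.

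Dnm3os was lower than each of the 12 pan-endothelial genes in each TEC, at -0.99, -3.10 and -3.24 relative to their median for HAK-1B, Hepa1-6 and KYN-2 TEC, as measured. The same held with its bounds in place of the dim values, but not with normexp background correction, where 7, 5 and 2 of the 12 were lower than Dnm3os. Col27a1 was above their median in HAK-1B TEC by 0.81 and below it in Hepa1-6 TEC and KYN-2 TEC, at -0.73 and -1.35. Ank1 was above the median of these genes in all 3 TECs, with a mean of 2.43 ± 0.70 (SD, n = 3 TECs).

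**Figure D3:**
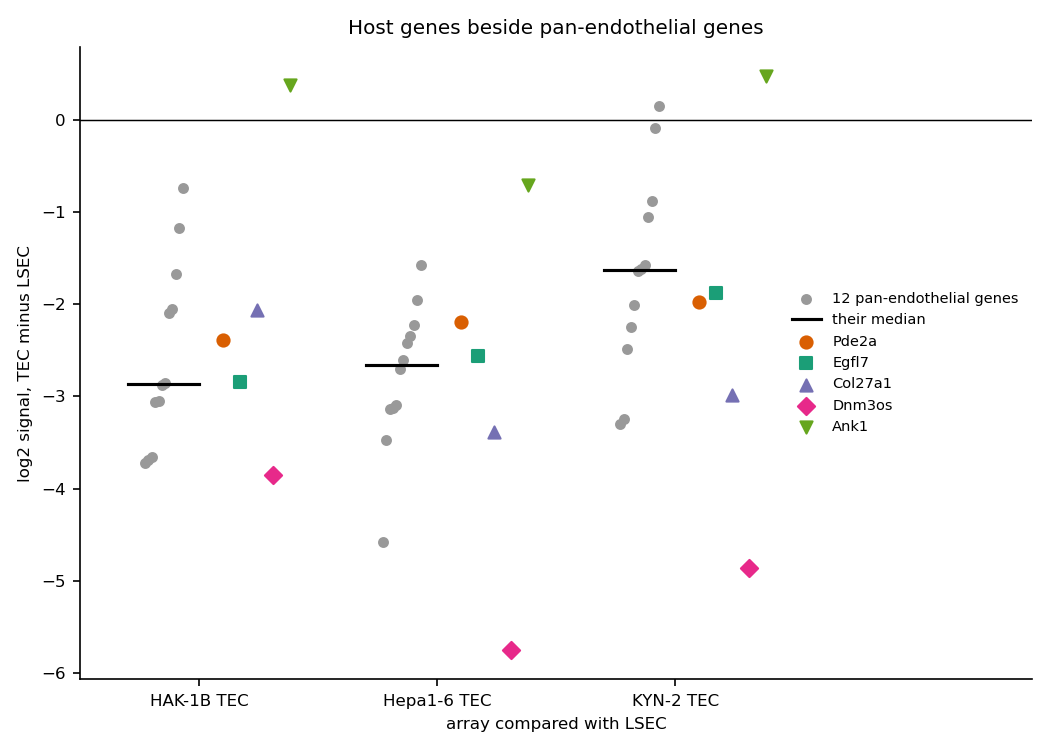
Log2 difference to the LSEC array (vertical axis) for 12 pan-endothelial genes (grey, with their median as a bar) and the 5 host genes (coloured marks) in each TEC array (horizontal axis). Egfl7 and Pde2a lie within the grey points in each TEC, Dnm3os lies at -3.85, -5.75 and -4.86, and Ank1 lies above the median of the grey points each time.

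The genes whose 4 differences to LSEC (3 TECs and the cancer cells) lay closest to those of a host gene were found by the root mean square distance, among probes well above background on the same arrays. For Pde2a they were Nod1 at 0.24, Fam171a2 at 0.30 and Rtp4 at 0.32, out of 19190 probes. For Egfl7 they were Maf at 0.27, Lzts3 at 0.32 and Cabp5 at 0.33. Maf is a transcription factor known in LSEC, and it had log2 differences of -2.45, -2.68 and -2.13 for HAK-1B, Hepa1-6 and KYN-2 TEC. For Col27a1 they included Ephx2 at 0.52 and Srek1 at 0.54. For Dnm3os only 92 probes had the same pattern of flags, and the closest, Cela3b, Hoxb2 and Zg16, were at 0.77 to 1.19. For Ank1 they were Atg13, Gm34752 and a probe of Qk, at 0.13 to 0.17 out of 4831 probes.

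In the nucleus, Drosha is the nuclease that cuts the hairpin out of the primary transcript. Its brighter probe (mm9 chr15:12864871-12864930, plus strand) gave 11.80 in LSEC, 11.67 in HAK-1B TEC, 13.03 in Hepa1-6 TEC, 11.48 in KYN-2 TEC and 14.08 in the cancer cells. The cancer cells were highest and Hepa1-6 TEC next, while LSEC and the other TECs lay together. Drosha was 2.35-fold higher than in LSEC in Hepa1-6 TEC and 4.86-fold higher in the cancer cells, and it differed from LSEC by 1.25-fold or less in the other TECs. The other probe of Drosha was well above background in Hepa1-6 TEC and the cancer cells only, at 3.53 and 6.81. In LSEC it gave 3.91, so it did not repeat the higher value of Hepa1-6 TEC. The dimmest signal that counts as well above background was 2.85 in Hepa1-6 TEC and 4.68 in LSEC.

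Dgcr8, the RNA-binding partner of Drosha, differed little among the endothelial arrays by the 2 probes well above background on all 4 of them. Its brightest probe (mm9 chr16:18254226-18254285, minus strand) gave 8.64 in LSEC, 8.46 in HAK-1B TEC, 8.87 in Hepa1-6 TEC, 8.35 in KYN-2 TEC and 9.38 in the cancer cells. LSEC lay within the range of the TECs, and the mean log2 difference was -0.08 ± 0.27 (SD, n = 3 TECs). A second probe gave 6.35 in LSEC and 5.81 to 6.25 in the TECs. The other 2 probes of Dgcr8 lie close together and disagreed. Of these, 1 was well above background in Hepa1-6 TEC alone, at 7.22 against 3.84 in LSEC, at least 5.84-fold higher. The other was so in Hepa1-6 TEC and the cancer cells, at 5.05 and 6.47, with 4.73 in LSEC.

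Xpo5, the carrier of the hairpin out of the nucleus, was higher on the other 4 arrays than in LSEC. Its brightest probe (mm9 chr17:46378755-46378814, plus strand) gave 8.14 in LSEC, 8.69 in HAK-1B TEC, 9.40 in Hepa1-6 TEC, 8.66 in KYN-2 TEC and 10.85 in the cancer cells. LSEC was lowest, the cancer cells were highest, and Hepa1-6 TEC came next. The signal was 1.46-fold, 2.38-fold and 1.43-fold higher than in LSEC for HAK-1B, Hepa1-6 and KYN-2 TEC and 6.51-fold higher in the cancer cells. A second probe was 1.13-fold, 1.28-fold and 1.03-fold higher in the same TECs. The third was well above background in Hepa1-6 TEC only, at 3.94.

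By their brightest probes, Drosha, Dgcr8 and Xpo5 shared the order of their 2 highest arrays, the cancer cells and then TECs of the tumor made from the same cells. The other Xpo5 probes and a Dgcr8 probe at 6.47 and 5.05 kept this order as measured. It was not kept by the second Dgcr8 probe, with LSEC at 6.35 and Hepa1-6 TEC at 6.25. Nor was it by the Dgcr8 probe that was highest in Hepa1-6 TEC, at 7.22, or by the other Drosha probe. The summed signal of a list of 10 hepatocyte genes was 1.67-fold that of LSEC in Hepa1-6 TEC and was 16.7-fold and 4.40-fold lower than LSEC in HAK-1B TEC and KYN-2 TEC. Of the 10, 7 were above LSEC in Hepa1-6 TEC, and 5 were well above background in the cancer cells. Alb, which encodes albumin, gave 15.54 in Hepa1-6 TEC and 13.94 in the cancer cells against 12.97 in LSEC. Apoa1 and Ahsg gave 8.83 and 12.10 in Hepa1-6 TEC and, with Ttr, were not well above background in the cancer cells, and Serpina1a and Apoa2 were lower in Hepa1-6 TEC than in LSEC. The part of RNA from cancer cells in the Hepa1-6 TEC values of Drosha, Dgcr8 and Xpo5 was not tested.

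In the cytoplasm, Dicer1 cuts the hairpin to the duplex, and its 5 probes disagreed. The brightest (mm9 chr12:105964455-105964514, minus strand) gave 12.16 in LSEC, 11.87 in HAK-1B TEC, 11.41 in Hepa1-6 TEC, 11.63 in KYN-2 TEC and 11.52 in the cancer cells. LSEC was highest, but the TECs were lower by 1.22-fold to 1.68-fold only. Of the other probes, the dimmest gave 6.82 in LSEC against 5.23 to 5.64 in the TECs, and another gave 10.54 in LSEC against 11.96 in KYN-2 TEC. The mean log2 difference of the 5 Dicer1 probes, all well above background on the 4 endothelial arrays, ran from -1.40 to 0.48. The brightest and the dimmest probe carry the same accession, of a cDNA clone, and the other 3 that of the RefSeq transcript.

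Ago2, the Argonaute that can cut a target, was higher in all 3 TECs by each of its 3 probes. The brightest (mm9 chr15:72929135-72929194, minus strand) gave 11.21 in LSEC, 12.26 in HAK-1B TEC, 11.78 in Hepa1-6 TEC, 12.26 in KYN-2 TEC and 11.65 in the cancer cells. LSEC was the lowest array, and the TECs were higher by 2.06-fold, 1.48-fold and 2.06-fold. The second probe gave 9.78 in LSEC and 11.19, 11.25 and 11.30 for HAK-1B, Hepa1-6 and KYN-2 TEC, a mean log2 difference of 1.47 ± 0.05 (SD, n = 3 TECs). The third gave 5.72 in LSEC and 7.82, 7.12 and 7.58 in the same TECs, a mean of 1.79 ± 0.35 (SD, n = 3 TECs). By probes, these 2 of the 24 were 1.5-fold higher in all 3 TECs, where 10.2% of all probes were, and 5 were lower, where 13.1% were. The brightest probe missed the count because of Hepa1-6 TEC, and its limma adjusted p was 0.752.

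Taken by size alone, the single comparisons split the genes as follows. At 0.66-fold or less, 4 of the 10 genes were lower in HAK-1B TEC (25.3% of probes) and 4 in KYN-2 TEC (28.1%), the same 4 host genes. In Hepa1-6 TEC 6 were lower (32.1% of probes), with Ank1 and Dicer1 added. At 1.5-fold or more, Ago2 was higher in HAK-1B TEC (28.0% of probes) and KYN-2 TEC (26.9%), and Drosha and Xpo5 in Hepa1-6 TEC (33.9%).

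By the brightest probe, the LSEC array lay outside the range of the TECs for 7 of the 10 genes, all but Ank1, Drosha and Dgcr8. This was so for 55.4% of the genes kept.

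In the cultured Hepa1-6 cells, 3 host genes were called lower than in LSEC by the rule of size, Pde2a, Egfl7 and Dnm3os, where 4.04% of 31176 probes were. None of the 10 was called higher by its brightest probe (2.16% of probes), though the Ank1 probe bright only in these cells passed. Egfl7 was 62.3-fold lower, and Col27a1 was 1.01-fold lower. At 0.66-fold or less alone, 5 of the 10 were lower (36.4% of probes), with Ank1 and Dicer1 added by their brightest probes. That of Ank1 gave 5.30 in LSEC and 2.67 in the cancer cells, where it was not well above background. Of the processing genes, Drosha, Dgcr8 and Xpo5 were more than 1.5-fold higher, at 4.86-fold, 1.67-fold and 6.51-fold, beside 37.3% of probes.

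The processing genes were then set in a list of 39 further genes of the pathway. By the brightest probe 2 were 1.5-fold higher in all 3 TECs, 3 were 0.66-fold or less and 34 were neither, with a median log2 difference of 0.10. These are 5.13% higher and 7.69% lower, beside 10.3% and 13.6% of all genes kept. Hnrnpa1, which binds some primary transcripts, had a mean log2 difference of 1.15 ± 0.34 (SD, n = 3 TECs). Snd1, a nuclease linked to the silencing complex, had 1.27 ± 0.54 (SD, n = 3 TECs).

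The 3 lower genes act at different steps. Ddx17, a helicase that works with Drosha, had a mean log2 difference of -1.10 ± 0.19 (SD, n = 3 TECs). Adarb1, an enzyme that edits double-stranded RNA, gave 13.00 in LSEC and 9.91 to 10.63 in the TECs, a mean of -2.73 ± 0.36 (SD, n = 3 TECs). Ago3, another Argonaute, had -1.66 ± 0.44 (SD, n = 3 TECs). Ago1 and Ago4 had means of -0.24 and -0.50 and passed neither count, and so did the Dicer1 partners Tarbp2 and Prkra at 0.37 and -0.18.

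Other host genes lay on both sides of LSEC. Of 50 other genes of a list of miRNA hosts that passed the filter, 13 were lower and 5 higher in all 3 TECs, or 26% and 10%, beside 13.6% and 10.3% of all genes kept. Their median log2 difference was -0.15. Trpm1, the host of miR-211, gave 11.97 in LSEC and 7.57 to 8.55 in the TECs. H19, the host of miR-675, gave 5.23 in LSEC and 8.37 to 9.71 in the TECs. Ctdspl, the host of miR-26a-1, had a mean log2 difference of -2.57, and Carmn, the host of miR-143 and miR-145, gave 4.97 in LSEC and 7.52, 3.23 and 7.62 in the HAK-1B, Hepa1-6 and KYN-2 TECs.

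Over all 479 genes kept that hold a miRNA gene on their strand in the gene table, 14.0% were lower and 11.1% higher in all 3 TECs, close to the shares of all genes kept. Their median log2 difference was 0.06. Among them 16 had a lower mean than Egfl7 and 21 than Pde2a.

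**Figure D4:**
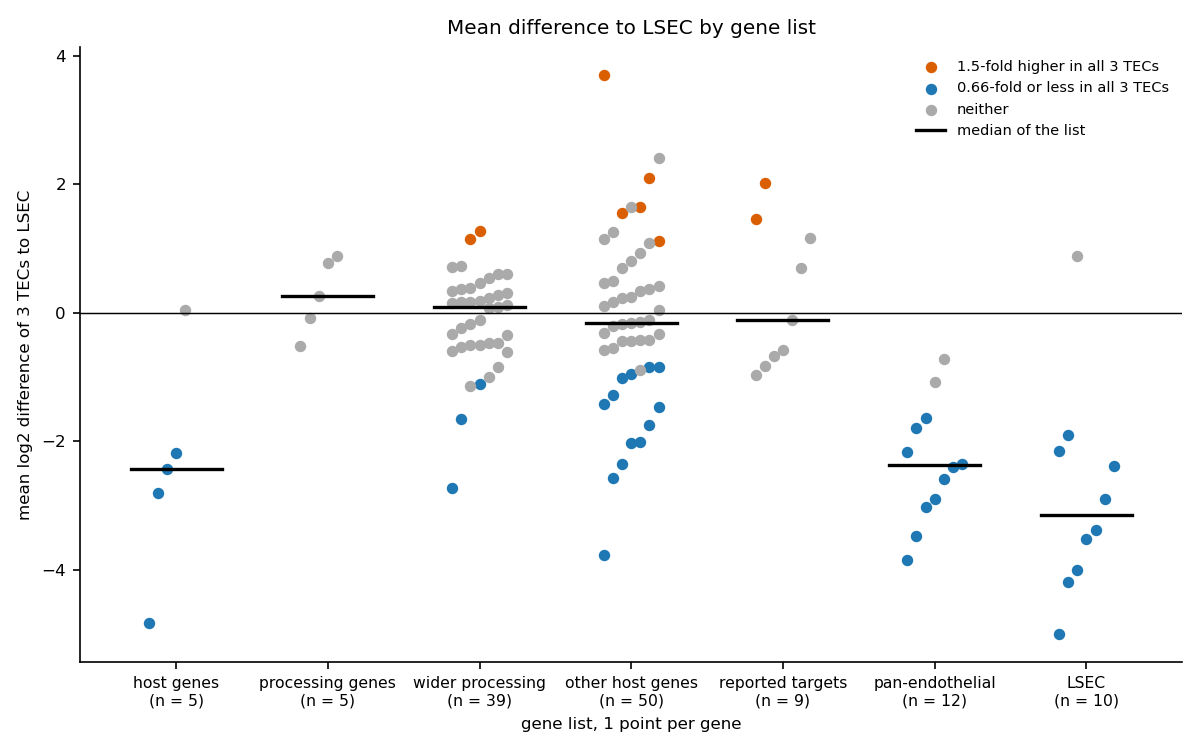
Mean log2 difference of the 3 TECs to LSEC (vertical axis) for each gene of 7 lists (horizontal axis), with the median of each list as a bar and colour for genes past 1.5-fold or 0.66-fold in all 3 TECs. The medians are -2.43 for the host genes and 0.26 for the processing genes, and the pan-endothelial and LSEC lists lie at -2.37 and -3.14.

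Last, 9 genes commonly named as targets of miR-126, miR-139, miR-199a or miR-214 were read on the same arrays. Of these, 2 were 1.5-fold higher in all 3 TECs and 0 were lower, beside 10.3% and 13.6% of all genes kept, with a median of -0.11. Cxcr4, a chemokine receptor, gave 9.46 in LSEC and 12.12, 10.44 and 11.87 in the HAK-1B, Hepa1-6 and KYN-2 TECs. Ezh2, a histone methyltransferase, gave 8.25 in LSEC and 9.13 to 10.06 in the TECs. LSEC was the lowest endothelial array for both. Pik3r2, a subunit of PI3 kinase, had a mean log2 difference of 1.17 and missed the count in KYN-2 TEC, and Foxo1, Vcam1, Qk and Spred1 had means of -0.97 to -0.11.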

How the data were processed

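RNA of 5 samples was labelled with Cy3 by the authors, hybridized to Agilent 60-mer mouse arrays and read with Feature Extraction (9.5.1.1 per the labels, 10.7.1.1 in the file parameters). The deposited values are linear spot intensities from which the scanner software had subtracted background, with flags of 0 or 1, and a table of intensity values that the authors had normalized between arrays.

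Repeated spots of a probe were averaged after control spots had been removed. Intensities were log2 transformed and quantile normalized over the 5 arrays. Probes flagged present on at least 1 array compared were kept (42113 over the endothelial arrays), without 4460 lincRNA probes. Each gene was read from its brightest probe by the mean over the 5 arrays. The Z-score is the distance of a log2 ratio from the mean of the probes kept, in units of their SD. A fold against a signal not well above background is a bound. limma 3.58.1 in R 4.3.3 compared the 3 TECs with LSEC. The steps were tested on simulated data, in which limma found few of the probes that had been changed. The rule of size found most of them but also made false calls through the shared LSEC array. Python 3.11.15, numpy 2.4.6, pandas 2.3.3 and matplotlib 3.10.9 did the rest. The number of arrays limits the precision, and no array had a saturated probe.

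The 10 genes and all lists were chosen with earlier results of these data known. All probes of the 10 genes were named, and from each wider list up to 4 genes with the largest mean difference well above background on the 4 endothelial arrays, and for each host gene the 3 nearest genes, apart from items that are not reported here. Other list members named in the text, such as Dnm3, Ago1 and Ago4, Cdh5, Pecam1, Lrat, Col1a1, Vsig4 and the further markers and targets, were chosen after their values were seen. Older symbols on the array were matched for Carmn and some others. As alternatives, values were scaled to the 75th percentile, quantile normalized by pair or corrected by normexp with an offset of 50, and further ones used the deposited table, the mean over all probes of a gene, stricter and no filters on dim probes, and each TEC left out in turn.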

Additional observations from a re-analysis of the deposited data

Results flagged for a closer look

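Members whose TECs stood on opposite sides of LSEC, with at least 1 past 1.5-fold or 0.66-fold and all 4 endothelial arrays well above background, were Drosha and Ank1. The log2 difference of Drosha to LSEC was 1.23 for Hepa1-6 TEC against -0.32 for KYN-2 TEC, a gap of 1.55. That of Ank1 was 0.48 for KYN-2 TEC against -0.70 for Hepa1-6 TEC, a gap of 1.18. Each TEC was a single array, so neither difference was tested.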

How the results depend on the processing

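Of 146 recomputed values for the comparisons and lists, 126 were counted as the same, and of 85 for single genes, 75 were. That rule did not ask for the same sign or the same count. With the mean over all probes of a gene, Drosha went from 0.26 to -0.24 and was counted as the same. So was the median of the processing genes, which went from 0.26 to -0.03 in that setting. With normexp background correction the genes called lower in HAK-1B TEC went from 2 to 3, also counted as the same. The 4 lower host genes stayed at 4 under each alternative but the strictest filter, which kept 3 since Dnm3os was dim in some TECs. Scaling to the 75th percentile, which moved the median of all probes from 0.09 to 0.26, left 1 gene called lower for each of HAK-1B TEC, Hepa1-6 TEC and the cancer cells, and quantile normalization by pair left 1 for each of HAK-1B and Hepa1-6 TEC. The mean over all probes of a gene, and well above background on all arrays compared, each left 1 for either of Hepa1-6 and KYN-2 TEC. In the other direction, 3 genes were called lower in each TEC with normexp background correction, and 3 in HAK-1B TEC with no filter. Ago2 was counted higher (1 gene) by the mean over its probes. With each TEC left out in turn the higher genes numbered 0 to 1 (Ago2, without Hepa1-6 TEC), and the medians ran from -0.22 to 0.55 for the processing genes, -0.045 to 0.054 for the wider processing list and -0.15 to -0.10 for the other host genes. The mean over all probes gave -0.11 for the wider processing list and 0.062 for the other host genes, which were at -0.039 with the 75th percentile and at -0.20 with the strictest filter. Relative to the pan-endothelial median, an alternative chosen after seeing the data, the host median was -0.045 and the mean of Pde2a changed sign to 0.20. The cause of these moves was not tested. limma called 0 probes at an adjusted p of 0.05 under each alternative run, with 2013 to 6235 at an unadjusted p under 0.05. No paired analysis was possible because no condition had a second array and the labels give no replicate numbers. Signals near background, such as Dnm3os in TECs, limit the folds that could be measured.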
